A study of Mus musculus with 3 samples.

Results

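Trimethylation of lysine 36 on histone H3 (H3K36me3), a mark laid down behind elongating RNA polymerase II, was described over 9 genes that set primordial follicle activation in the mouse oocyte: Kit, Pdpk1, Akt1, Foxo3, Cdkn1b, Tsc1, Tsc2, Mtor and Rptor. The genes were chosen by their known function, and their windows were all 2 kb windows of the deposited table that overlap the gene body in GENCODE release M21 on GRCm38. These were 394 of the 1186323 valid windows, and 9 of the 21067 protein-coding genes with at least 1 valid window. A further 2 windows of Rptor were not among the valid windows, out of 396 possible. In 8 of the 9 genes the mean level over the body was above the study's enrichment threshold of 1 RPKM, and Cdkn1b, the shortest gene, was below it. The mark formed blocks that began just behind the gene start in most members and, at Kit and Foxo3, ended near the gene end. Every start window was called for H3K4me3, as was that of 87.4% of protein-coding genes of at least 20 kb. No window of the 9 genes was called for H3K27me3, and 52.6% of protein-coding genes of at least 20 kb had none either.

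Primordial follicles form a resting store in the ovary, and their activation is set inside the oocyte. The receptor tyrosine kinase KIT responds to KIT ligand made by granulosa cells and activates PI3K, after which PDPK1 and AKT phosphorylate targets that include the transcription factor FOXO3, which leaves the nucleus. In parallel the TSC1-TSC2 complex holds back the kinase complex mTORC1, built on MTOR with its scaffold RPTOR, and the cell cycle inhibitor p27, encoded by Cdkn1b, also restrains activation. H3K36me3 is found over transcribed gene bodies, H3K4me3 marks promoters and also forms broad domains in oocytes, and H3K27me3 is a repressive Polycomb mark.

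The study mapped H3K36me3 by native ChIP-seq for very small cell numbers, on germinal vesicle (GV) oocytes, the fully grown stage that precedes meiotic resumption. Chromatin came from 3 pools with about 280 cells apiece. All were taken from wildtype C57BL6/Babr mice aged 25 days and formed a single group, so the oocytes are well past the activation that these genes set and no other stage, genotype or control group was compared. The labels do not say whether the pools came from separate mice, so the spread between replicates may be partly technical. Replicate 2 was prepared with less antibody than replicates 1 and 3.

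Reads in valid windows numbered 7888140 in replicate 1 and 2692510 and 3166564 in replicates 2 and 3. A single read was therefore worth 0.136 RPKM in replicate 1 but 0.396 and 0.338 in the others, and a window needed 8, 3 and 3 reads, respectively, to lie above 1. The 9 genes together held 6747, 2583 and 2674 reads. Counting error was thus larger in replicates 2 and 3, where 10 and 4 member windows held no read. Of 9 genes, the level was highest in replicate 2 for 7 and lowest in replicate 1 for 5. The part of antibody amount and depth in this order was not tested. Among markers of the cells a follicle holds, all 10 oocyte genes were above 1 (from 1.20 ± 0.44 for Npm2, a chaperone of the egg, to 3.73 ± 1.03 RPKM for the growth factor Bmp15, SD, n = 3). Above 1 were 4 of 10 granulosa genes (0.353 ± 0.03 for Fshr to 2.02 ± 0.20 for Nr5a2), 2 of 6 theca and stroma genes (0.342 ± 0.09 for Lhcgr to 2.41 ± 0.07 for Star) and 1 of 4 immune genes (0.228 ± 0.06 for Ptprc to 1.14 ± 0.24 for Csf1r). In each replicate, 7 oocyte, 2 granulosa, 2 theca and stroma and 0 immune genes were above 1. By the mean, 52.5% of all protein-coding genes were above 1, and 32% of those under 6 kb. These values are chromatin levels and do not measure RNA.

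The bases before the gene start are shown for 4 genes because every start window carried the H3K4me3 call while its DNA differed widely in CG content. The sequences are the RefSeq promoter entries on GRCm38.p6, 5′ to 3′ on the strand of the gene, trimmed to bases outside annotated exons, with CG dinucleotides in capitals. Pdpk1 is shown at 2 starts, its outermost start and an inner start 9.33 kb further into the gene.
Kit (chr5:75574737-75574915, plus strand): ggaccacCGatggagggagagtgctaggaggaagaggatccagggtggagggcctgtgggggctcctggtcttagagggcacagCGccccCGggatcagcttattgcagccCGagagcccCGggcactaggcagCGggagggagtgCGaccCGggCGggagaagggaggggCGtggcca
Foxo3 (chr10:42276756-42276945, minus strand): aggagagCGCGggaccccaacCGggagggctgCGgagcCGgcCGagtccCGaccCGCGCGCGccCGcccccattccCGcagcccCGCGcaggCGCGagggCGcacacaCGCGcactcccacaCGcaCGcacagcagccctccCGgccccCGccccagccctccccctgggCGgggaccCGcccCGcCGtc
Cdkn1b (chr6:134920151-134920400, plus strand): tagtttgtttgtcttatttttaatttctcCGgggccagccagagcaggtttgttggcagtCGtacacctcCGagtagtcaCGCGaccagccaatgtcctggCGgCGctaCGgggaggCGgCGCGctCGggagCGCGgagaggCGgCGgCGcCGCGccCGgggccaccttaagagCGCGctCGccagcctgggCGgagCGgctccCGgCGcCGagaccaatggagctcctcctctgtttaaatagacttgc
Pdpk1 outer start (chr17:24150925-24151172, minus strand): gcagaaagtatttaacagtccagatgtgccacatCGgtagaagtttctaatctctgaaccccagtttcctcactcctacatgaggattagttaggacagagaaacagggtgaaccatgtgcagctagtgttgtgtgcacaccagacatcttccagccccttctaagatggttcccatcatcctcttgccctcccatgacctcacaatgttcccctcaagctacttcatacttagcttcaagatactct
Pdpk1 inner start (chr17:24141596-24141844, minus strand): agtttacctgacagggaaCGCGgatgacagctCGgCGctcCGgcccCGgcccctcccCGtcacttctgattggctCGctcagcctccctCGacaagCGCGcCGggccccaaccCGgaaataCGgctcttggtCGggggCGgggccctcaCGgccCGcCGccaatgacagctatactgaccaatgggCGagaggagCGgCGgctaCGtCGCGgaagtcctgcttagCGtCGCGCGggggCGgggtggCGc
Over the full 250 bases before the start, Foxo3 and the inner start of Pdpk1 held 31 CG dinucleotides each and Cdkn1b held 28, while the outer start of Pdpk1 held 1. The median over 32851 RefSeq promoters was 6. The GC box letters GGGCGG, read on both strands, were present before the main starts of Kit, Foxo3, Cdkn1b and Mtor and before the inner start of Pdpk1, and in 32.7% of all promoters. The forkhead core letters GTAAACA occurred once, before Akt1, and in 3.17% of all promoters. The letters TAATTG were not found before any of the 9 genes and lay in 7.17% of all promoters. A match of letters is not evidence of a bound factor.

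Kit and Foxo3, the receptor at the top of the pathway and the transcription factor that keeps the follicle at rest, had nearly equal body levels. Kit (ENSMUSG00000005672.12, chr5:75574916-75656722, plus strand) measured 2.10, 2.42 and 2.35 RPKM in replicates 1, 2 and 3, or 2.29 ± 0.17 (SD, n = 3) over 42 windows. Foxo3 (ENSMUSG00000048756.11, chr10:42181841-42276755, minus strand) measured 2.23, 2.35 and 2.29 RPKM, or 2.29 ± 0.06 over 49 windows. The replicates of both genes overlapped, and both stood high among protein-coding genes (percentiles 87.5 and 87.4). Among those of at least 20 kb the percentiles were 83.1 and 82.9.

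The kinases between them had lower means, but Pdpk1 and Kit overlapped between replicates (2.16 for Pdpk1 and 2.10 for Kit in replicate 1). Pdpk1 (ENSMUSG00000024122.16, chr17:24073680-24150924, minus strand), the kinase that phosphorylates AKT, measured 2.16, 2.08 and 2.17 RPKM, or 2.14 ± 0.05 over 40 windows. Akt1 (ENSMUSG00000001729.14, chr12:112653821-112674884, minus strand), the kinase that phosphorylates FOXO3, measured 1.47, 1.52 and 1.21 RPKM, or 1.40 ± 0.16 over 12 windows. Each replicate of Akt1 lay below each replicate of the 7 other genes above 1. Akt1 stood at percentile 57.7, close to the middle of all protein-coding genes, and at 46.9 among those of at least 20 kb. Pdpk1 stood at percentiles 82.2 and 75.4, respectively.

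The mTORC1 genes held the highest levels of the 9. Tsc2 (ENSMUSG00000002496.10, chr17:24595816-24632630, minus strand), which encodes the GTPase-activating subunit that switches off RHEB, measured 2.26, 3.51 and 2.67 RPKM, or 2.81 ± 0.64 over 20 windows. Mtor (ENSMUSG00000028991.15, chr4:148448611-148557683, plus strand), the kinase itself, measured 2.60, 2.91 and 2.76 RPKM, or 2.76 ± 0.16 over 55 windows. Tsc1 (ENSMUSG00000026812.16, chr2:28641228-28691167, plus strand), which stabilises TSC2, measured 2.62, 2.79 and 2.73 RPKM, or 2.71 ± 0.09 over 26 windows. These 3 genes, an inhibitory pair and the kinase they hold back, stood at percentiles 98.0, 97.5 and 97.1 of protein-coding genes and overlapped one another. Rptor (ENSMUSG00000025583.15, chr11:119602905-119899576, plus strand), the substrate scaffold of mTORC1, measured 2.42, 2.73 and 2.13 RPKM, or 2.43 ± 0.30 over 147 windows, at percentile 91.8. The spread of Tsc2 and Rptor was wider than counting error. The 95% exact Poisson interval of Tsc2 was 2.02 to 2.52 in replicate 1 and 3.01 to 4.06 in replicate 2, and those of Rptor, 2.33 to 2.51, 2.57 to 2.91 and 2.00 to 2.27, did not overlap. Intervals cover counting error only, since PCR copies may be among the reads.

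Cdkn1b (ENSMUSG00000003031.14, chr6:134920401-134925513, plus strand) was the exception. It covers 3 windows that held 20, 3 and 9 reads, and its level was 0.905, 0.396 and 1.02 RPKM in the 3 replicates, or 0.772 ± 0.33. The 95% exact Poisson intervals, 0.553 to 1.40, 0.0817 to 1.16 and 0.464 to 1.93, all contained 1. Whether the gene lies above or below the threshold was therefore not detectable at this depth. Its windows measured 0.407 ± 0.36 at the start, 1.01 ± 0.65 in the middle, which carried the H3K36me3 call, and 0.897 ± 0.29 at the end.

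**Figure D1:**
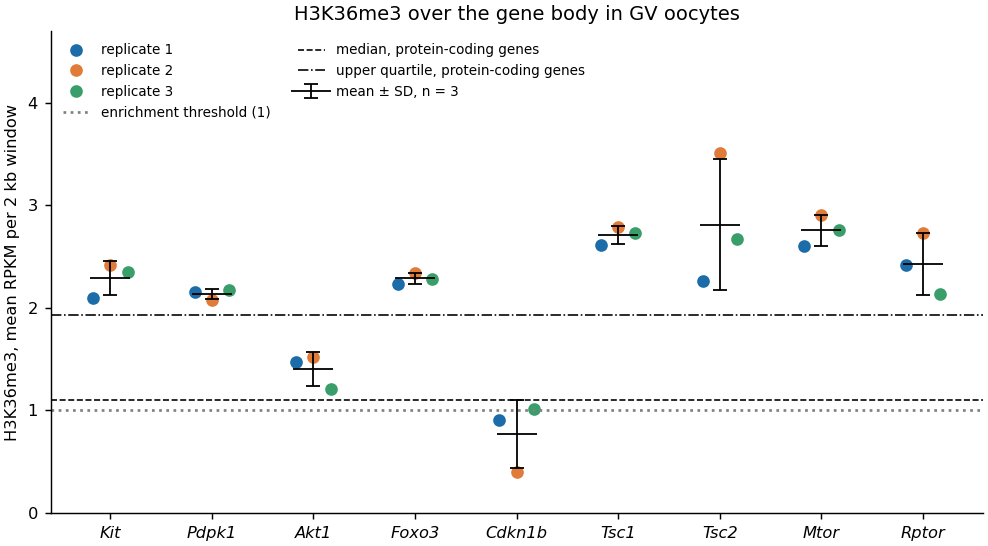
Mean H3K36me3 RPKM over the windows of each gene body (vertical axis) for the 9 genes, ordered from receptor to mTORC1, with 1 point per replicate and bars for mean ± SD (n = 3). Lines mark the threshold of 1 and the median and upper quartile of protein-coding genes (1.10 and 1.94 RPKM). All replicates of 7 genes lie above the upper quartile, Akt1 lies between 1.21 and 1.52, and Cdkn1b straddles the threshold. The upper quartile of genes of at least 20 kb is 2.13 (not drawn), above Kit in replicate 1 (2.10) and Pdpk1 in replicate 2 (2.08).

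The order from highest to lowest was Tsc2, Mtor, Tsc1, Rptor, Kit, Foxo3, Pdpk1, Akt1 and Cdkn1b. Neighbours in this order overlapped between replicates down to the pair of Kit and Foxo3, and did not overlap for Foxo3 and Pdpk1, Pdpk1 and Akt1, or Akt1 and Cdkn1b. Pdpk1 exceeded Akt1 by 0.737 ± 0.20 RPKM and Akt1 exceeded Cdkn1b by 0.629 ± 0.47, both in 3 of 3 replicates (exact permutation test by flipping signs over replicates, two-sided, p = 0.25, the smallest that 3 replicates allow). No such test can reach 0.05 here. Against the mean of all valid windows in the same replicate, the 8 genes above 1 were higher in 3 of 3 replicates, from a log2 ratio of 0.63 ± 0.18 for Akt1 to 1.62 ± 0.32 for Tsc2 (exact permutation p = 0.25 for each), while Cdkn1b had a log2 ratio of -0.34 ± 0.74 (exact permutation p = 1). Without replicate 2 the ratio of Cdkn1b was 0.086. Above 1 were 8 of 9 members, against 52.5% of protein-coding genes in all, 63.1% of those of at least 20 kb and 32% of those under 6 kb. The 8 genes are all at least 20 kb long and Cdkn1b is 5.11 kb long.

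By window, 377 of 394 (95.7%) were above 1, against 31.8% of all valid windows, and 300 were above 1 in each replicate. Those 300 were 79.6% of the member windows above 1, against 62.1% for all valid windows above 1. The deposited H3K36me3 call was the same as a mean above 1 in every window. At Tsc2 all 20 windows were called, at Mtor 54 of 55, at Foxo3 48 of 49, at Kit 41 of 42, at Tsc1 25 of 26, at Pdpk1 38 of 40 and at Rptor 141 of 147. Akt1 had 9 of 12 and Cdkn1b 1 of 3. Windows above 1 in each of the 3 replicates made up the largest share at Mtor (50 of 55) and Tsc2 (18 of 20), against 24 of 40 at Pdpk1, 6 of 12 at Akt1 and 0 of 3 at Cdkn1b. Of the 17 windows not called, 7 were start windows.

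**Figure D2:**
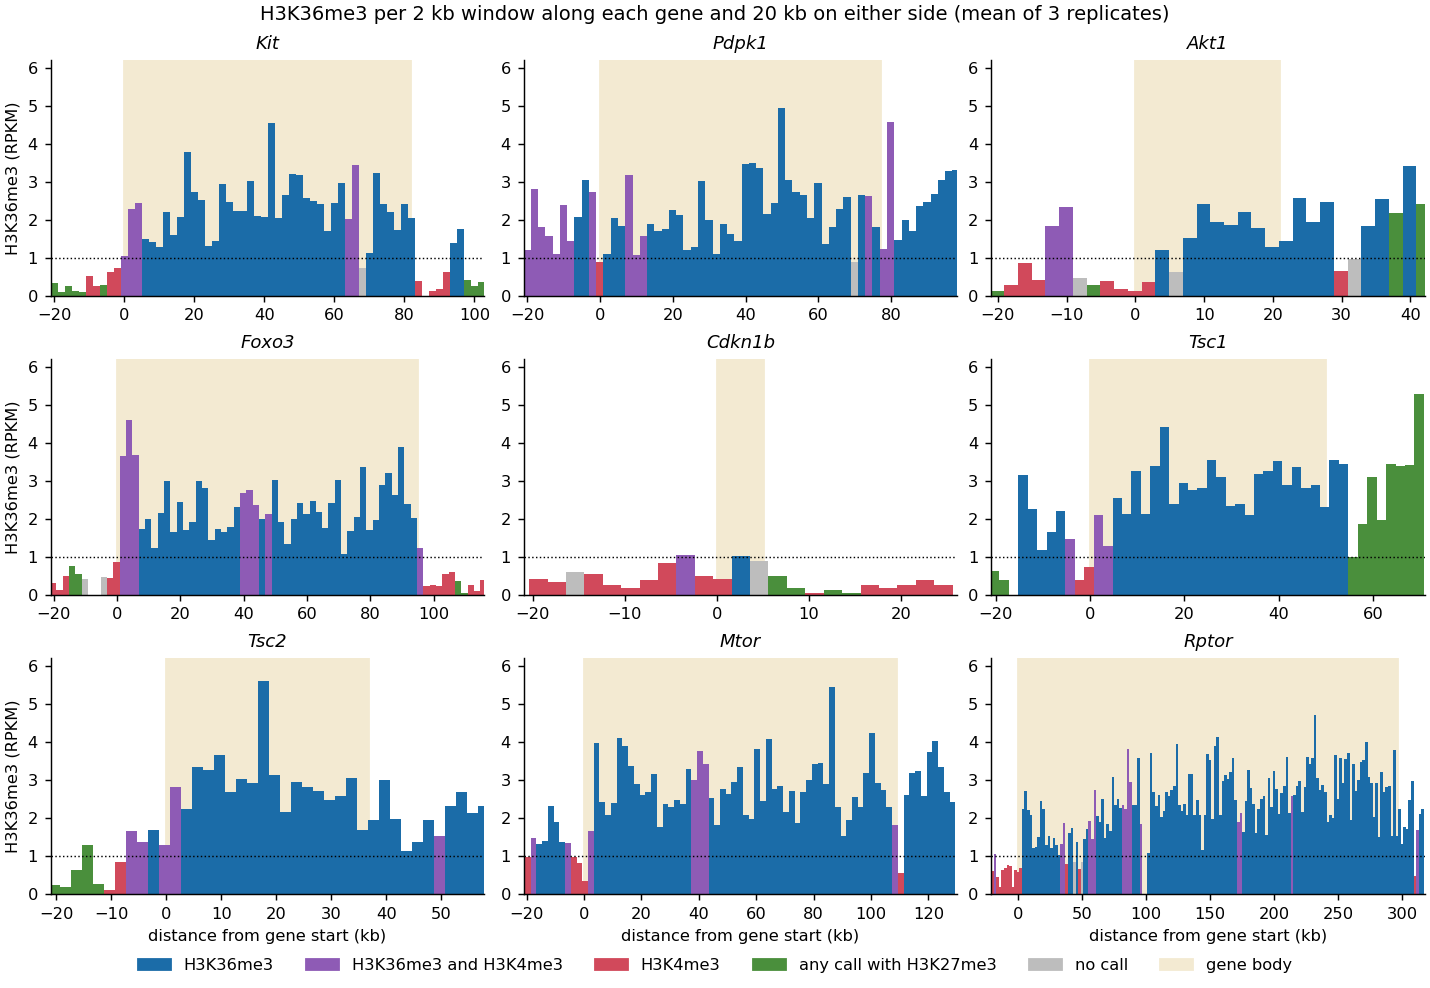
H3K36me3 RPKM, mean of 3 replicates, in each 2 kb window (vertical axis) by distance from the gene start in kb (horizontal axis, transcription to the right), with the gene body shaded, 20 kb shown on either side and bars coloured by the deposited calls. Gaps are windows that were not valid or at 0. No window outside the body within 10 kb of Kit or Foxo3 is above 1, windows above 1 continue within 10 kb past the end of Pdpk1, Akt1, Tsc1, Tsc2, Mtor and Rptor, and red bars (H3K4me3 without H3K36me3) sit at 7 of the 9 starts.

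The edges of the enriched block separated the genes. At Kit the 10 kb before the start averaged 0.488 ± 0.26 RPKM and the 10 kb after the end 0.175 ± 0.23, against 2.29 in the body, and all 9 flanking windows were called for H3K4me3. At Foxo3 the flanks averaged 0.309 ± 0.29 and 0.315 ± 0.23, and its single enriched run (chr10:42180001-42276000, 96 kb) covered 99.2% of the body and ended 1.84 kb past the gene. The body exceeded the flanks by a log2 ratio of 2.92 ± 1.07 at Kit and 3.11 ± 1.13 at Foxo3, in 3 of 3 replicates (exact permutation p = 0.25). The size rests on few flanking reads: leaving out 1 replicate at a time gave 2.40 to 3.47 at Kit (lowest without replicate 3) and 2.48 to 3.56 at Foxo3 (lowest without replicate 2).

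Around Mtor, Tsc1 and Tsc2 enriched windows were also found outside the gene. The run over Mtor (chr4:148450001-148558000, 108 kb) covered 98.7% of the body and ended 0.317 kb past it, and the 10 kb after the gene averaged 2.43 ± 0.16 RPKM with 4 of 5 windows above 1. The run over Tsc1 (chr2:28642001-28696000, 54 kb) went 4.83 kb past the gene end into the neighbouring gene Spaca9. Of the 5 windows in the 10 kb after Tsc1, 3 were called for H3K27me3, all beyond the end of this run. Those centred 57.8 and 59.8 kb from the Tsc1 start also carried H3K36me3 and H3K4me3. The run over Tsc2 (chr17:24564001-24640000, 76 kb) extended both ways, before the start into Nthl1, a DNA repair gene, and Slc9a3r2, and past the end into Pkd1, the polycystin gene that overlaps the end of Tsc2. Averaged over each whole neighbour, levels were lower than in Tsc2, with 1.70 ± 0.21 RPKM over Pkd1, 1.49 ± 0.35 over Nthl1 and 0.705 ± 0.16 over Slc9a3r2. For Pkd1 and Slc9a3r2 these means include windows outside the run, and 2 of the 7 windows of Slc9a3r2 were above 1. At Pdpk1 the flanks did not lie below the gene, with 2.32 ± 0.92 before, 2.44 ± 0.65 after and a log2 ratio of body to flanks of -0.13 ± 0.33 (exact permutation p = 0.5).

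Rptor and Akt1 were low before the start and had no sharp end. The longest run of Akt1 began 6.88 kb inside the gene. Before Rptor the level was 0.596 ± 0.45 RPKM and after it 1.90 ± 0.65, and before Akt1 0.330 ± 0.22 and after it 1.91 ± 0.33, where its 22 kb run (chr12:112646001-112668000) continued into Siva1. Cdkn1b lay between flanks that averaged below 1, with 0.592 ± 0.20 before and 0.180 ± 0.13 after, where 4 of 5 windows were called for H3K27me3. Its body exceeded the flanks by a log2 ratio of 0.91 ± 0.52, in 3 of 3 replicates (exact permutation p = 0.25). Before the starts of Kit and Akt1, 1 flanking window each carried the H3K27me3 call.

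At the start, all 9 genes had a window lower than the body in 3 of 3 replicates, a pattern shared by 62.1% of protein-coding genes of at least 20 kb. Start windows ranged from 0.136 ± 0.24 RPKM at Akt1, with 3 reads in all, to 1.30 ± 0.54 at Tsc2, whose start window also holds the start of Nthl1 on the other strand. The start was the lowest window of the gene in 8 of 9 genes. At Kit it measured 1.36, 0.793 and 1.02 RPKM, still above the lowest window of the gene. Of the 9, the start windows of Kit and Tsc2 carried the H3K36me3 call beside H3K4me3. A start window above 1 was present in 25% of the 8 long members and in 22.4% of protein-coding genes of at least 20 kb.

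Behind the start the level climbed at different rates. At Foxo3 it went from 0.875 ± 0.58 to 3.65 ± 0.71 RPKM in the second window and 4.61 ± 2.76 in the next, the highest of the gene, and windows 2 to 4 carried both calls. At Mtor it went from 0.339 ± 0.34 to 1.66 and 3.98 RPKM. At Rptor and Akt1 the second window was also low, with 0.675 ± 0.85 and 0.361 ± 0.34 RPKM, and carried H3K4me3 alone. Over the 8 long genes the start window averaged 0.738 ± 0.29 RPKM, next to 0.721 ± 0.04 in all 9978 protein-coding genes that are 20 kb or longer, and the window 4 kb further in averaged 2.51 ± 0.47 next to 1.21 ± 0.02. The start windows held a median of 107 CG dinucleotides, from 28 at Pdpk1 to 169 at Foxo3, and the later windows a median of 23.

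**Figure D3:**
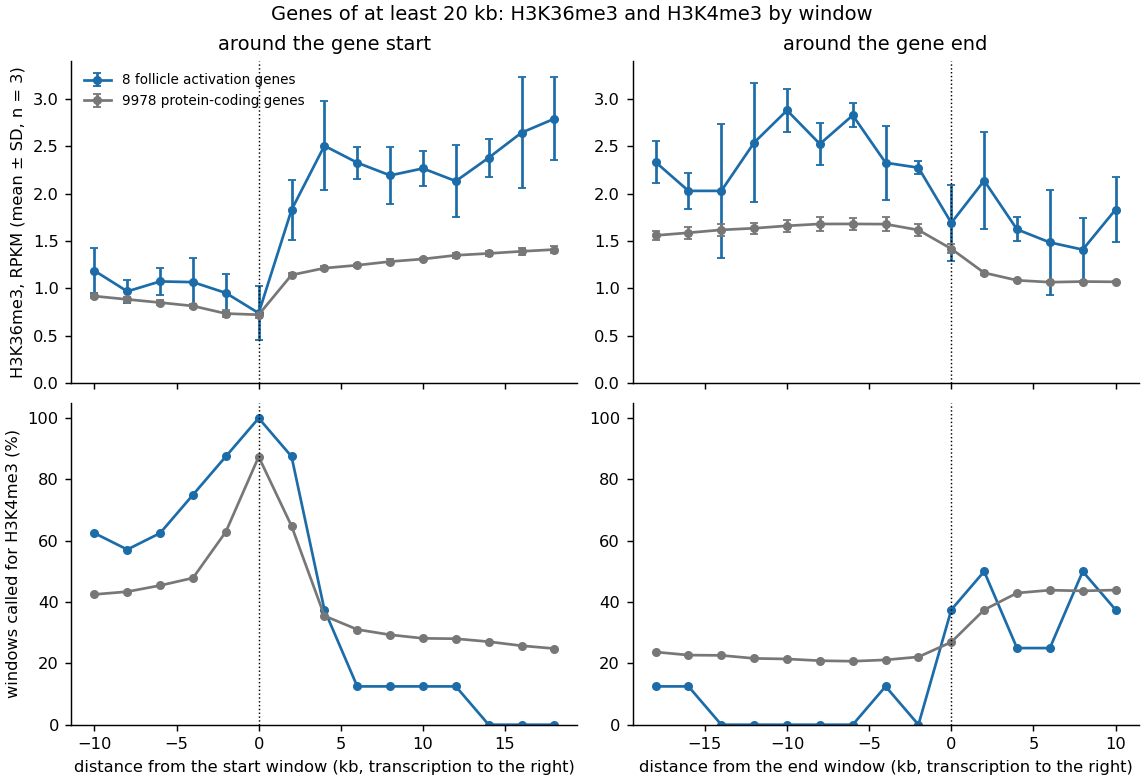
Mean ± SD (n = 3) of H3K36me3 RPKM (top) and percent of windows called for H3K4me3 (bottom) by distance in kb from the window at the gene start (left) or end (right), for the 8 genes of at least 20 kb and for 9978 protein-coding genes of at least 20 kb. Both sets have nearly the same level at the start window (0.738 and 0.721), and the 8 genes separate from the rest behind it, where their H3K4me3 share drops to 12.5% at 6 kb against 31.1%.

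Pdpk1 had 2 starts that differed in CG content. The window of its outermost start holds 28 CG dinucleotides, the fewest of the 9 start windows, and measured 1.63, 0 and 1.02 RPKM (mean 0.882 ± 0.82). The window of the inner start (chr17:24140001-24142000) holds 7 annotated transcript starts and 117 CG dinucleotides, the most of any Pdpk1 window, and measured 2.17, 0 and 1.02 RPKM (mean 1.06 ± 1.09). It lies inside a stretch of 3 windows called for both H3K36me3 and H3K4me3 (chr17:24138001-24144000, 1.94 ± 0.80 RPKM). The first window of that stretch, just before the inner start, measured 3.39, 2.77 and 3.38 RPKM. With no read in replicate 2 at either start, the 2 windows cannot be ranked.

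Along the body, 3 equal parts were compared in the direction of transcription in the 8 long genes. Akt1 had the steepest front: 0.584 ± 0.24 RPKM in the opening part, 1.94 ± 0.38 in the middle and 1.68 ± 0.29 in the closing part, a log2 ratio of closing to opening of 1.58 ± 0.52 (1.29 without replicate 2). The opening part of Akt1 is 4 windows, of which 2 are the H3K4me3-called windows at the start. Rptor, over 296.7 kb, had means of 1.84 ± 0.21, 2.59 ± 0.55 and 2.86 ± 0.18 RPKM. The step from the middle to the closing part is smaller than the SD of the middle part and was not tested. The log2 ratio of closing to opening at Rptor was 0.64 ± 0.11. Both ratios were above 0 in 3 of 3 replicates (exact permutation p = 0.25 for each). All 6 windows of Rptor that were not called lay among its first 26 windows, up to about 50 kb from the start.

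The other genes were flatter. Pdpk1 had a log2 ratio of 0.34 ± 0.24, Tsc1 of 0.26 ± 0.10 and Kit of 0.15 ± 0.12, each above 0 in 3 of 3 replicates (exact permutation p = 0.25). Without replicate 2 the ratio was 0.20 at Pdpk1 and 0.086 at Kit. Mtor with 0.12 ± 0.33, Foxo3 with -0.05 ± 0.23 and Tsc2 with -0.12 ± 0.32 changed sign between replicates (exact permutation p = 0.75).

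**Figure D4:**
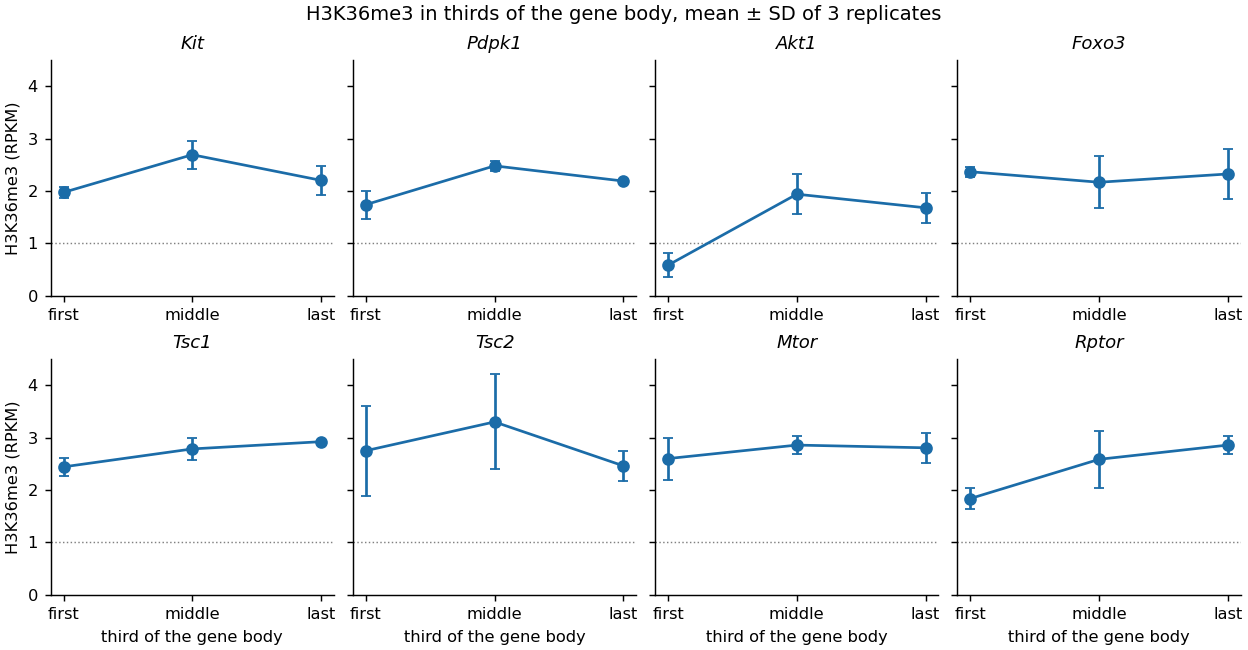
H3K36me3 RPKM in 3 equal parts of the gene body in the direction of transcription for the 8 genes of at least 20 kb, mean ± SD of 3 replicates, with a dotted line at the threshold of 1. Akt1 goes from 0.584 to 1.94 and 1.68, Rptor from 1.84 to 2.59 and 2.86, and the other genes stay between 1.74 and 3.30.

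Within genes, single windows varied over a wide range, partly by counting. The highest window was that of Tsc2, 17.6 kb from the start (chr17:24614001-24616000), at 2.85, 7.53 and 6.43 RPKM (5.60 ± 2.45). The highest of Mtor, 86.4 kb from the start (chr4:148534001-148536000), measured 4.48, 4.36 and 7.45 RPKM. Both overlap exons, by 460 and 118 bases, whereas the highest windows of Kit (4.53 ± 1.75), Foxo3, Tsc1 (4.41 ± 2.38) and Rptor (4.71 ± 1.89) lie in introns. The highest of Rptor, 232.1 kb in, holds the start of the antisense gene Rptoros.

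From the fourth window on, 144 member windows overlapped an exon of their gene and 223 were intronic. Exon windows averaged 2.63 ± 0.18 RPKM and intron windows 2.36 ± 0.21, a log2 ratio of 0.15 ± 0.03 that was above 0 in 3 of 3 replicates (exact permutation p = 0.25). Windows of all genes were pooled for this ratio, and the genes differ in level and in their share of each kind. Rptor held 111 of the intron and 33 of the exon windows, and Mtor 20 and 32. The part of this mix in the pooled ratio was not tested. Of 6 genes with at least 3 windows of each kind, the ratio was above 0 in 3 of 3 replicates at Rptor (0.20 ± 0.08), Kit (0.12 ± 0.06) and Mtor (0.11 ± 0.11), while Pdpk1 (0.19 ± 0.33), Foxo3 (-0.12 ± 0.16) and Tsc1 (-0.16 ± 0.17) changed sign between replicates. At Rptor exons lie unevenly along the gene and the level is also higher in its closing than its opening part, and the part of each was not tested.

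Kit had a dip near its end. Window 35 (chr5:75642001-75644000, 68.1 kb from the start, intronic) measured 1.09, 0.793 and 0.338 RPKM, or 0.739 ± 0.38, the lowest of the gene, and the next window 1.12 ± 0.46. Both neighbours of this pair were high: window 34 measured 3.44 ± 1.14 RPKM and window 37 measured 3.23 ± 0.81. Windows 33 and 34 carried H3K4me3 beside H3K36me3, and window 34 holds an annotated transcript start of Kit. The dip split the gene into a run of 68 kb (chr5:75574001-75642000) and a shorter one that reached the gene end.

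H3K4me3 was called in 51 member windows (12.9%), against 28.3% of all valid windows. Among windows called for H3K36me3 the shares were closer, 10.6% in the members and 16.0% over all valid windows. Of these, 40 also carried H3K36me3 and 11 did not, and 337 windows had H3K36me3 alone while 6 had no call. Rptor had 17 H3K4me3 windows, Foxo3 had 9, Pdpk1 and Mtor had 6 each, Kit 5, Tsc1 3, Akt1 and Tsc2 2 each and Cdkn1b 1. From the fourth window on, 32 of 367 windows were called, in stretches of up to 4 windows at Rptor (chr11:119684001-119692000) and 3 at Foxo3 (chr10:42232001-42238000) and Mtor (chr4:148486001-148492000). These windows averaged 2.37 ± 0.16 RPKM of H3K36me3 and the others 2.51 ± 0.23, a log2 ratio of -0.08 ± 0.20 with 2 of 3 replicates lower. An annotated transcript start lay in 3 of the 32 and in 35 of the 335 others, and the median CG count was 22 and 23.

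H3K27me3 was called in 0 of 394 member windows, against 30% of all valid windows. Among protein-coding genes of at least 20 kb, 52.6% had no such window, so the absence in the 8 long genes is common among genes of this length. The H3K4me3 and H3K27me3 calls are 1 per window and have no replicates, so their error is unknown.

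Genes that overlap the members differed from the rest of the host by varying amounts. The 4 windows of Angptl7, a secreted factor gene on the opposite strand inside Mtor, averaged 2.54 ± 0.07 RPKM, next to 2.77 ± 0.17 in the rest of Mtor. The 8 windows of Rptoros averaged 3.26 ± 0.53 RPKM, next to 2.38 ± 0.29 in the rest of Rptor. The 2 windows shared with Pkd1 at the end of Tsc2 averaged 1.81 ± 0.34, next to 2.93 ± 0.68 in the rest. ChIP reads carry no strand of transcription, so the mark cannot be assigned to either gene of such a pair.

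The genes whose profile along the body was most like that of Kit, by the root mean square difference over 10 equal parts in 3 replicates (30 values), were Vwa8 (0.431 RPKM), Ppp1r12b (0.439) and Lrrfip2 (0.462), among 9445 long protein-coding genes, whose median was 1.27. Among the members, Foxo3 (0.666), Pdpk1 (0.679) and Rptor (0.687) were nearest to Kit and Tsc2 (1.19) farthest.

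Of 47 other genes of the pathway, 40 (85.1%) were above 1, and 37 were so in each replicate. The share above 1 was 52.5% of all protein-coding genes and 63.1% of those of at least 20 kb. The median level of the 47 was 1.89 RPKM, next to 1.10 over all protein-coding genes and 1.51 over those of at least 20 kb. All 12 genes of the mTOR complexes and their inputs were above 1 by the mean, and 11 were so in each replicate. They ranged from 1.06 ± 0.10 for Prkaa2 to 2.87 ± 0.32 RPKM for Rragc, a GTPase that brings mTORC1 to the lysosome. Prkaa2 measured 0.939 in replicate 2, with 13 of its 38 windows above 1 and 18 called for H3K27me3. Deptor, an inhibitory subunit of the mTOR complexes, measured 2.55 ± 0.30, Rheb, the GTPase that TSC2 switches off, 2.24 ± 0.19, and Rictor, the scaffold of mTORC2, 2.16 ± 0.03. All 7 PI3K genes were above 1, the highest being the catalytic subunit Pik3cd at 2.45 ± 0.33.

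Ligands, receptors and phosphatases had 7 of 10 genes above 1, close to the 63.1% of protein-coding genes of at least 20 kb. Of 5 ligands and receptors 3 were above 1, among them Kitl, the ligand that granulosa cells supply to KIT, at 1.46 ± 0.11 RPKM. Of 5 phosphatases 4 were above 1. Inpp4b, a lipid phosphatase, was the lowest of all 47 at 0.317 ± 0.02.

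Paralogues of the members differed in level. Akt2 stood at 2.08 ± 0.06 RPKM, above Akt1 in each replicate, and the related kinase gene Sgk3 at 0.349 ± 0.08. Foxo1 stood at 1.50 ± 0.03, below Foxo3 in each replicate, and Foxo6 at 0.321 ± 0.07, so 1 of 3 other FOXO genes was above 1. Of 11 output genes 10 were above 1, from 0.363 ± 0.20 for Eif4ebp1, a translation repressor that mTORC1 phosphorylates, to 2.57 ± 0.77 for Gsk3a, with Rps6, the ribosomal protein downstream of mTORC1, at 1.89 ± 0.08. All 7 genes of the list below 1 had windows called for H3K27me3, as had 6 of the 40 above 1. Among protein-coding genes of at least 20 kb, 52.6% had no such window. The share among all genes below 1 was not computed, so these counts are not shown to be particular to the pathway.

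**Figure D5:**
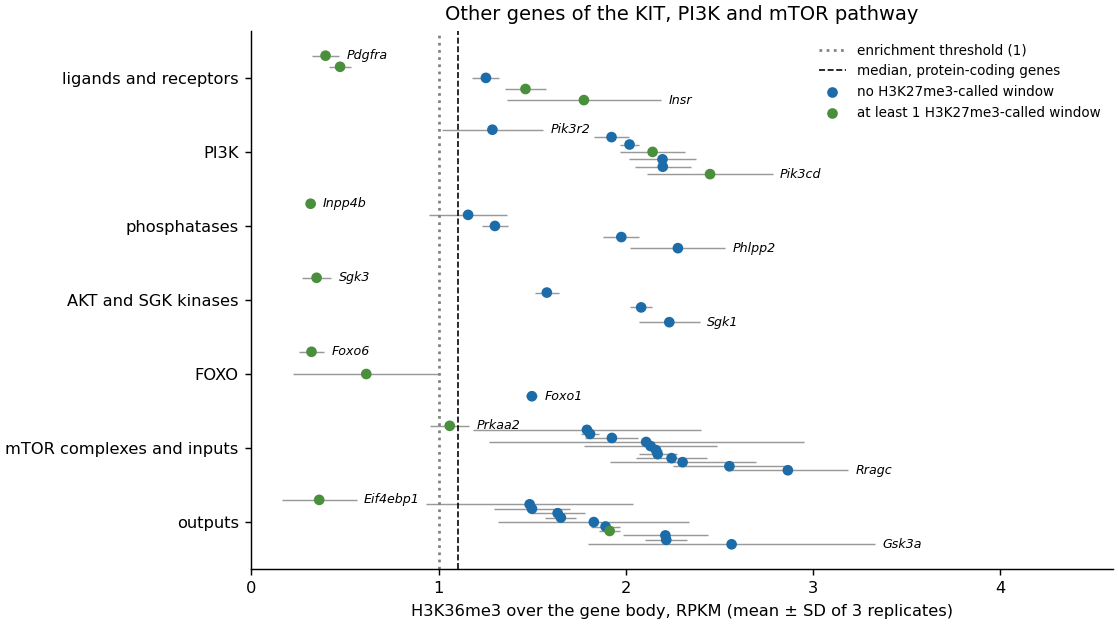
Mean H3K36me3 RPKM over the gene body (horizontal axis, mean ± SD of 3 replicates) for 47 other pathway genes grouped by role, with green points for genes that have at least 1 window called for H3K27me3 and the lowest and highest gene of each group named. By the mean, all 12 mTOR and all 7 PI3K genes lie above the threshold of 1, and the 7 genes below it are all green. Of all protein-coding genes 52.5% were above 1, and of those of at least 20 kb 52.6% had no H3K27me3-called window (neither drawn).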

How the data were processed

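H3K36me3 was measured in 3 replicates of 1 group. Reads were trimmed and aligned by the authors with Bowtie2 2.2.9 (version per the submitters' processing notes), on GRCm38, and they deposited 1 RPKM value per replicate for windows of 2 kb, after removal of windows with extreme input signal. Whether duplicates were removed is not given in the sources used here. The columns sum to 1071190, 1067250 and 1071600, so the deposited values are nearer to CPM per window than to RPKM, and levels are comparable only on that scale. All values were whole multiples of 1 read within a tolerance of 0.1 reads. A second deposited table gives category names per window, in which the H3K4me3 and H3K27me3 calls rest on earlier libraries of the laboratory.

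A gene's level was the linear mean over all windows that overlap its GENCODE M21 body, without pseudocount. Flanks were 10 kb, parts were set by window midpoints, and tests were two-sided exact sign-flip permutation tests over replicates with a smallest p of 0.25, run on log2 ratios within each replicate (for the order of genes, on differences in RPKM). P-values were not adjusted, since none can pass. One sample group allowed no comparison between conditions. Named were the 9 members, of the pathway list the 4 highest, the 4 lowest and Foxo1, Kitl, Akt2, Rictor, Rheb and Rps6 (others are not reported here), the highest and lowest marker of each cell type, the 3 genes most like Kit, and overlapping neighbours. Prkaa2 was named as the lowest of its group after its value was seen. The members and lists were chosen with earlier results of these data known. The exon, CG and inner start descriptions were added after the levels were seen. Scripts were tested on simulated windows and run with Python 3.11.15, numpy 2.4.6, pandas 2.3.3 and pysam 0.24.0. Alternatives were other window rules, thresholds of 1.5 and 2, medians, 20 kb flanks, pooled reads and leaving out each replicate.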

Additional observations from a re-analysis of the deposited data

How the results depend on the processing

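Of 138 recomputed values of single genes, 132 kept their direction, among them all 48 body levels of the 8 genes above 1. Leaving out replicate 2 turned Cdkn1b against all windows from -0.34 to 0.086 (log2; -0.59 to 0.086 over the 3 replicates left out) and Tsc2 along its body from -0.12 to 0.044 (-0.27 to 0.044). Leaving out replicate 3 turned Foxo3 along its body from -0.05 to 0.046 (-0.17 to 0.046) and Mtor from 0.12 to -0.041 (-0.041 to 0.29), and medians over windows turned Foxo3 to 0.13. With 20 kb flanks Akt1 no longer exceeded them (-0.026). The cause was not tested. The median log2 ratio over the genes was 1.34 for body against all windows and 1.19 with medians over windows (1.32 to 1.40 leaving out replicates), 0.21 for closing against opening part and 0.32 with medians (0.20 to 0.25), and 0.78 for body against flanks and 0.95 with 20 kb flanks (0.53 to 0.77, lowest without replicate 2). Of 394 windows, 336 were above 1.5 and 275 above 2, and 383 above 1 with pooled reads. Members above 1 numbered 7 at 1.5 and at 2, where Akt1 is lost. By window midpoint 44 of 384 windows had H3K4me3 and 0 had H3K27me3. Short genes and single windows rest on few reads, as Cdkn1b does, and 3 replicates of a single group limit every test.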
